A study of Mus musculus with 28 samples.

Results

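Group D holds the Sertoli cells enriched for stages VII-VIII of the seminiferous cycle, 2 of the 10 libraries of sorted Sertoli cells in a mouse series of 28 libraries. It was chosen by its label and compared with the mean of the other 4 stage groups, B (stages I-III), C (stages IV-VI), E (stages IX-X) and A (stages XI-XII), each of 2 libraries. All 10 come from testes with germ cells of animals labelled RFP heterozygote, Amh-Cre-positive, a genotype in which a Cre recombinase driven by the promoter of Amh, a gene of Sertoli cells, goes with a red fluorescent protein (RFP) by which the cells were sorted. The strain label is C57BL/6 x 129s4/SvJae, except that of group A replicate 1, which names C57BL/6 x Amh-Cre background. Every animal of the series, the controls for the other stages included, had WIN 18,446, which blocks the synthesis of retinoic acid, for 7 days and then an injection of retinoic acid (RA), and was taken 42 to 50 days later, so each stage group comes from a synchronised testis. A further 18 libraries, 2 from each of 9 days, are of whole testes without germ cells, from NANOS2 KO animals on the CD1 background. They enter no comparison of stages here and mark genes that are not expressed without germ cells. The labels give no age, and do not say that the replicates of a group are separate animals, so p-values measure the spread between these samples.

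Sertoli cells line the seminiferous tubule and hold successive generations of germ cells, which move past them in a fixed order of associations called stages. At stages VII-VIII mature spermatids are released into the lumen (spermiation), preleptotene spermatocytes cross the tight junctions of the blood-testis barrier and enter meiosis, and retinoic acid and androgen action on the tubule are known to be high. Spermatids are anchored to the Sertoli cell by bundles of actin called ectoplasmic specializations, which are taken apart before release, and the cytoplasm that spermatids shed is then engulfed by the Sertoli cell.

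Sorted libraries held 1901743 to 5279746 counts, with 2686399 in group D replicate 1 and 3826087 in replicate 2, so that 3 counts equal 1.12 and 0.784 CPM there, the unit of counts scaled to library size that is used for levels throughout. Mitochondrially encoded transcripts took 12.5% of the counts in group D replicate 1, the largest share of the 10 libraries, and 4.61% in replicate 2, the smallest, and leaving those genes out gave 1245 calls in place of 1239. Sertoli identity genes were present in group D, with Wt1, a transcription factor of Sertoli cells, at a mean of 328 CPM, Sox9 at 123 CPM, Cldn11, the barrier claudin, at 918 CPM and Clu (clusterin) at 5899 CPM, none of them called. Trf, the transferrin gene, was low in all sorted libraries, with a mean of 1.54 CPM in group D and 4.28 CPM elsewhere. A library of another stage stood close to group D. Over the 500 genes that varied most, the root mean square log2 difference of group C replicate 2 was 1.33 from group D replicate 1 and 1.19 from replicate 2, less than its 1.72 from group C replicate 1. Group C replicate 1 lay 2.51 and 2.43 from the same libraries, and the D libraries lay 0.806 from each other. Several results that rest on group C are therefore given by library or without group C replicate 2.

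The first comparison asked which transcripts stand apart at stages VII-VIII. Genes for retinol uptake (Stra6), actin cross-linking (Actn3), chloride transport (Ano1) and androgen response (Rhox5) were higher in group D than in the mean of the other stages, while genes of elongating spermatids (Prm1, Tnp1), actin bundling (Espn), the recognition of dying cells (Gas6) and the first step of heme synthesis (Alas2) were lower. In all 1239 of 14331 genes (8.65%) passed an adjusted p of 0.05 (edgeR quasi-likelihood test with Benjamini-Hochberg adjustment), 625 higher (4.36%) and 614 lower (4.28%), while 3266 (22.8%) had an unadjusted p under 0.05. Of the genes called higher, 537 differed by at least 2-fold, 220 by at least 4-fold and 58 by at least 8-fold, against 546, 176 and 37 of those lower. The median log2 fold change was 1.67 for genes called higher, -1.58 for those called lower and 0.04 over all genes tested. Both D libraries lay above the 8 others for 344 of the 625 genes called higher and below them for 538 of the 614 called lower, while 6.04% and 8.21% of all tested genes were so placed, 14.2% in all. The count of calls rested on group D having 2 libraries, since a fit that left out group D replicate 1 called 295, leaving out its replicate 2 gave 387, and leaving out group E replicate 1 gave 772.

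**Figure D1:**
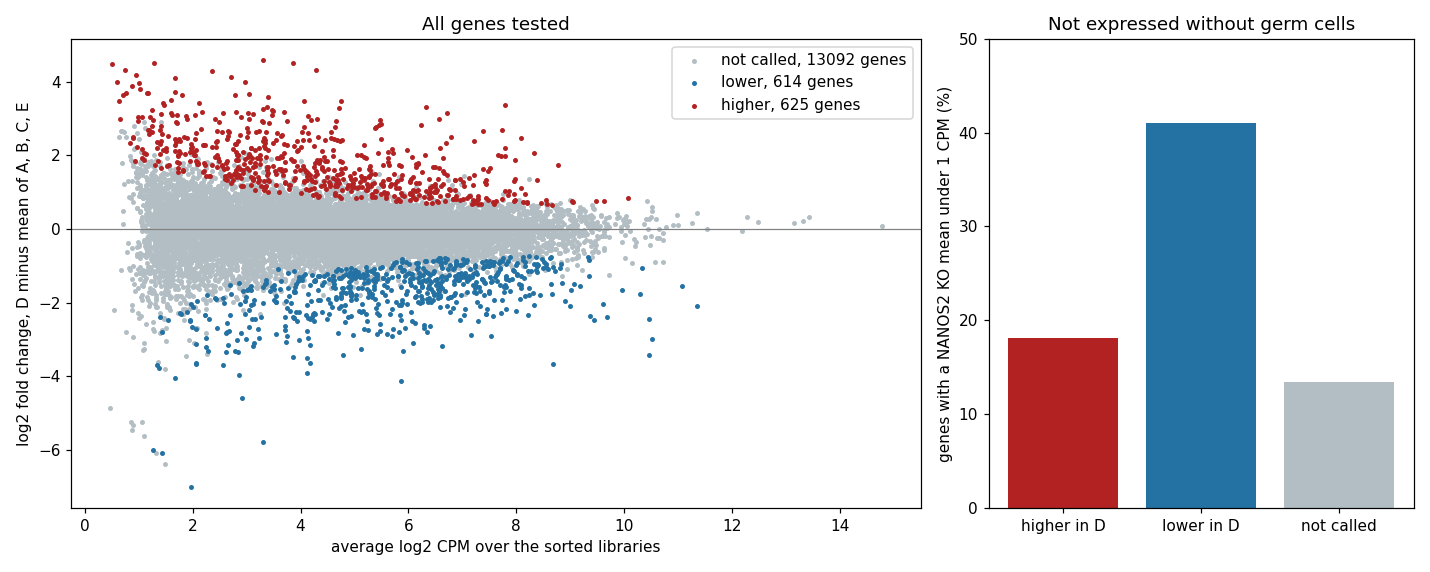
Left, the log2 fold change of each tested gene (group D minus the mean of groups A, B, C and E) against its average log2 CPM over the 10 sorted libraries, with the 625 genes called higher in red and the 614 called lower in blue. Right, the percent of each class with a mean under 1 CPM in the 18 NANOS2 KO libraries, which is 18.1% of genes called higher, 41% of those called lower and 13.4% of those not called.

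Many genes called lower in group D were silent in testes without germ cells. The mean over the NANOS2 KO libraries was under 1 CPM for 252 of 614 genes called lower (41%), for 113 of 625 called higher (18.1%) and for 2117 of all 14331 tested (14.8%). These shares are a description with no test. A sorted library holds RNA of germ cells beside that of Sertoli cells, and in such bulk samples fewer cells of a type and less RNA per cell cannot be told apart. The remaining 512 genes called higher and 362 called lower had a knockout mean of at least 1 CPM, with median log2 fold changes of 1.57 and -1.39.

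The 4 genes chosen as markers of the group, with earlier results of these data known, were Actn3, Stra6, Ano1 and Rhox5. With all libraries in the fit, none of them was called higher than in group C. Promoter windows of 3 of them are printed here because these genes were called higher in group D and their level is followed through the cycle below. Each is the 250 bases before a transcription start listed in RefSeq (build GRCm38.p6), 5′ to 3′ on the gene's strand, with capitals at a match to AGAACA, the hexamer of which recognition sequences for steroid hormone receptors of the glucocorticoid type are built, read here as its reverse complement TGTTCT. The Stra6 window is chr9:58128838-58129087 on the plus strand, before the first of 4 listed starts. It lies within the gene as GENCODE M21 annotates it, which begins at 58063788. The Rhox5 window is chrX:37754358-37754607 on the plus strand, upstream of the gene as GENCODE M21 annotates it, which begins at 37804842. The Ano1 window is chr7:144738574-144738823 on the minus strand. It too lies within the gene as GENCODE M21 annotates it, which begins at 144751974 on that strand.
Stra6: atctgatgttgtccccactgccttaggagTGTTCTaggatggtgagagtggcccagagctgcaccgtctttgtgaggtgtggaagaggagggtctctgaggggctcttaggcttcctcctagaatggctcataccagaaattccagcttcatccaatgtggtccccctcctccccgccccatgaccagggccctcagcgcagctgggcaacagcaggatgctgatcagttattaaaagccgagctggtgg
Rhox5: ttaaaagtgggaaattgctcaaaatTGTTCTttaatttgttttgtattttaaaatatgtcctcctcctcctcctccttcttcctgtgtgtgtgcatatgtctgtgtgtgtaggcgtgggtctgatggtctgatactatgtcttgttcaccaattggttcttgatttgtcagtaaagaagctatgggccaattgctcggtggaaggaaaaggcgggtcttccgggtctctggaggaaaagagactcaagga
Ano1: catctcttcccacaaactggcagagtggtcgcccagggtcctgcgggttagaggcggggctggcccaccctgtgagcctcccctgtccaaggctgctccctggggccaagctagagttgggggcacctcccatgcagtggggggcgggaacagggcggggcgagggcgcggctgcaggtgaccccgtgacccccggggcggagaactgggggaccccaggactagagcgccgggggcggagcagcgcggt
Stra6 held 1 match, 221 bases before its listed start, and Rhox5 1 match, 225 bases before its listed start. The letters are not in the Ano1 window, nor in the windows of the androgen-responsive genes Drd4 and Eppin. On either strand AGAACA was in 12.6% of the 454 windows found for genes called higher, 12.8% of the 446 for genes called lower, 11% of the 10127 for all tested genes and 16.1% of all 32851 windows of the same length. For AGGTCA, the hexamer of retinoic acid and other nuclear receptor sites, the shares were 11.9% of windows of genes called higher, 16.4% of those called lower and 11.3% of those tested. A match is a description of letters and no binding was measured.

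Stra6 encodes the cell surface receptor that takes up retinol from its carrier in the blood. It stood at 233 and 208 CPM in the group D libraries, and elsewhere at a lowest of 4.84, a median of 8.57 and a highest of 150 CPM. Both D libraries lay above all others, and the level differed widely within group C, with 8.39 CPM in replicate 1 and 150 CPM in replicate 2, while group E held 83.6 and 85 CPM. The log2 fold change was 3.32 (SE 0.52, adjusted p = 0.00192). Actn3, an alpha-actinin that cross-links actin, had 551 and 698 CPM in group D, with 12.6, 78.4 and 497 CPM as the lowest, median and highest of the other libraries, the highest again group C replicate 2. Its log2 fold change was 3.38 (SE 0.33, adjusted p = 0.000246). For Ano1, a calcium-activated chloride channel, the D libraries were at 370 and 219 CPM and the others between 5.25 and 201 CPM (median 44.5), a log2 fold change of 3.15 (SE 0.33, adjusted p = 0.000312). Rhox5, an X-linked homeobox gene switched on by androgen in Sertoli cells, did not separate group D from group C. It had 545 and 793 CPM in D and 549 and 660 CPM in C, against 43.8 to 156 CPM in the 6 libraries of A, B and E (log2 fold change against all others 2.06, SE 0.22, adjusted p = 0.000312). All 4 genes kept their call in each of the 10 fits with 1 library left out.

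**Figure D2:**
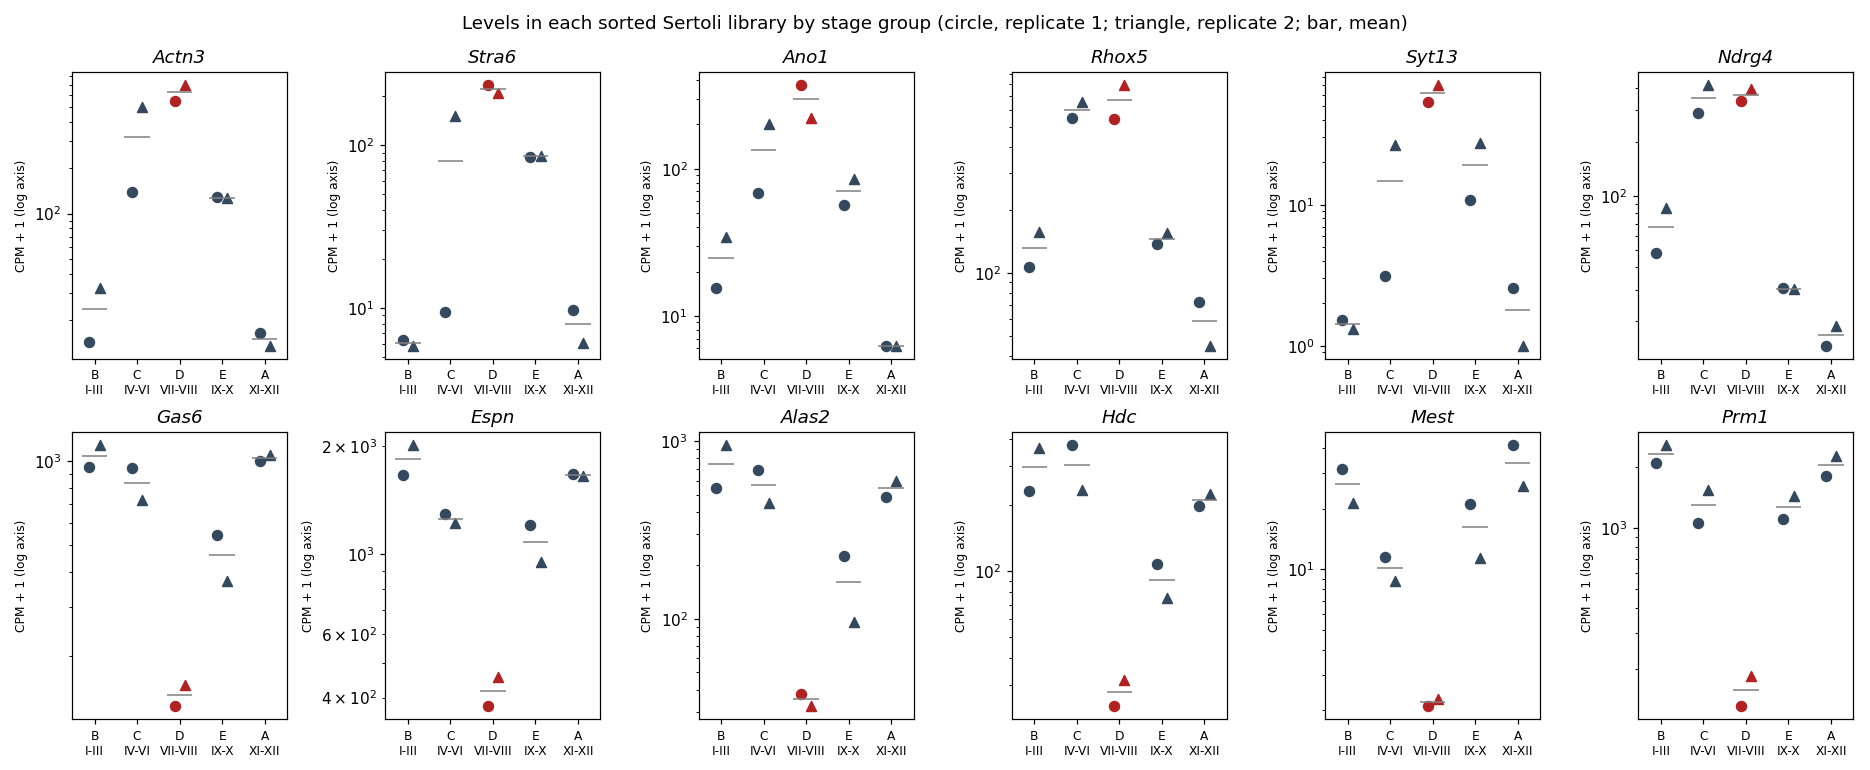
CPM + 1 (log axis, scaled to each gene) in each sorted library for 12 genes, by stage group in the order of the cycle, with a circle for replicate 1, a triangle for replicate 2, group D in red and a bar at the group mean. Stra6 is at 8.39 CPM in group C replicate 1 and 150 CPM in replicate 2, while Rhox5 and Ndrg4 are high in both libraries of C and D, and Gas6, Espn, Alas2, Hdc, Mest and Prm1 are lower in both D libraries than in every other library.

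Among the largest rises outside the markers were genes of secretion and adhesion. Syt13, of the synaptotagmin family of membrane traffic proteins, had 52.5 and 69.6 CPM in group D and 0, 1.83 and 26.4 CPM as the lowest, median and highest elsewhere (log2 fold change 4.31, SE 0.62, adjusted p = 0.00123). Tmprss6, a membrane serine protease of iron homeostasis, was at 37.8 and 53.8 CPM, against 0.203 to 36.7 CPM (median 6.6; log2 fold change 3.06, SE 0.35). In both genes each D library was above every other library. Rapgef5, an exchange factor for Rap GTPases (2.98, SE 0.32), Prss35, of the serine protease family (2.97, SE 0.38), Kirrel, an adhesion protein related to nephrin (2.94, SE 0.28), and Olfml3, a secreted protein (2.83, SE 0.39), were likewise separate on the log2 scale. Prss35 had 378 CPM ± 48.4 (SD, n = 18) in whole NANOS2 KO testes. Fam107a (3.29, SE 0.54) lost its call without group D replicate 1, at adjusted p = 0.0509.

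Among the largest falls, Ptpn7, a tyrosine phosphatase, had 2.57 and 2.55 CPM in group D and 4.58 to 165 CPM (median 57.3) in the other libraries, a log2 fold change of -4.14 (SE 0.55, adjusted p = 0.000832). Mest, an imprinted gene of the hydrolase family, was at 1.1 and 1.27 CPM, against 7.77 to 40.3 CPM (median 20.2; log2 fold change -3.90, SE 0.51). The level of Mest in group D is close to that of 3 counts, so the size of this fall is loosely fixed. Hdc, which makes histamine from histidine, stood at 23.1 and 30.6 CPM, with 74.3, 227 and 374 CPM as the lowest, median and highest of the others (-2.91, SE 0.32, adjusted p = 0.000387). It is expressed without germ cells, at 179 CPM ± 19.9 (SD, n = 18) in NANOS2 KO. Arhgef6, an activator of Rac and Cdc42, had 2.57 and 2.55 CPM in D against 12.1 to 27.4 CPM (-2.97, SE 0.37), Diras2, a small GTPase, 16.5 and 11.7 CPM against 45 to 133 CPM (-2.68, SE 0.34), and Il17re, a receptor chain for interleukin-17C, 6.24 and 15 CPM against 33.9 to 122 CPM (-2.68, SE 0.37). These falls kept their call in each fit with 1 library left out. Mapk13, a p38 kinase (-2.78, SE 0.45), did not pass without group D replicate 1, at adjusted p = 0.0592, and Pkdrej (-2.74, SE 0.58) and Plk1 (-2.60, SE 0.60) did not pass with either D library left out, at adjusted p = 0.133 and 0.199 without replicate 1 and 0.144 and 0.127 without replicate 2.

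The genes called higher in group D fell away on both sides of the cycle, and less toward stages IV-VI. Group C had the next highest mean for 446 of the 625 genes (71.4%) and group E for 173 (27.7%). The 2 libraries of group C differed in this. In replicate 2 the log2 level over these genes was a median of 0.345 below that of group D, against 1.13 below in group C replicate 1, 1.45 and 1.18 below in group E, and 1.67 to 2.21 below in the libraries of A and B. Replicate 2 of group C reached the lower of the D libraries in 238 of the 625 genes (38.1%), group C replicate 1 in 83 (13.3%) and group E replicate 2 in 34 (5.44%). Genes called lower showed no such split of group C. Replicate 1 lay a median of 1.16 above group D and replicate 2 1.14 above, and the highest mean was that of group A in 353 of 614 genes (57.5%) and of group B in 211 (34.4%). These medians are over genes chosen for their difference in the same libraries and are given as a description.

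**Figure D3:**
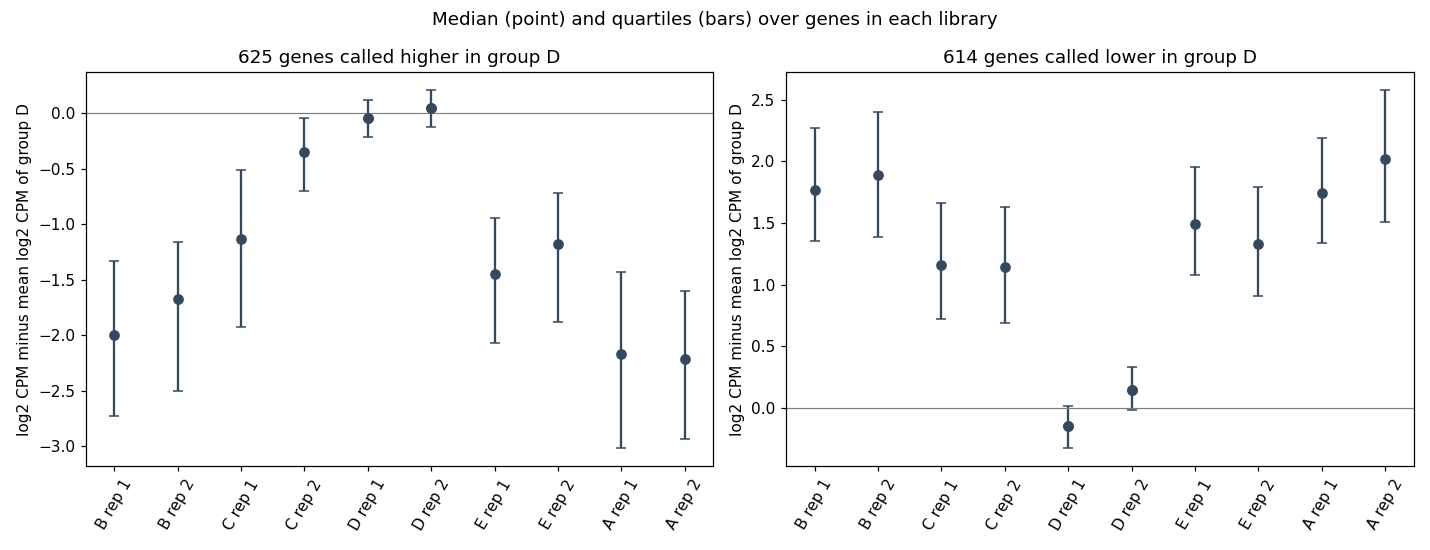
Median (point) and quartiles (bars) over genes of each library's log2 CPM minus the mean log2 CPM of group D, for the 625 genes called higher (left) and the 614 called lower (right) in group D. Group C replicate 2 sits at -0.345 for the higher genes, the nearest library to group D, while both C libraries sit alike for the lower genes, at 1.16 and 1.14.

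The second comparison set group D against group C, the stages before it. In edgeR's test 90 genes passed (0.628%), 2 higher in D (0.014%) and 88 lower (0.614%), while 1606 (11.2%) had an unadjusted p under 0.05. The count of higher genes depended on the method, with 64 higher and 245 lower in DESeq2 and 237 higher and 380 lower without the filter on low counts. Gsta3, a glutathione transferase, had 69.7 and 60.2 CPM in D and 4.2 and 15.9 CPM in C (log2 fold change 2.67, SE 0.47, adjusted p = 0.025). Tbc1d10c, a regulator of Rab GTPases, had 8.44 and 11 CPM against 1.05 and 1.87 CPM (2.70, SE 0.54, adjusted p = 0.0427). Genes lower in D than in C included Hdc (-3.49, SE 0.36, adjusted p = 0.00193), Prm1 (-3.05, SE 0.32, adjusted p = 0.00193), Ptpn7 (-5.55, SE 0.61, adjusted p = 0.00199), Alas2 (-4.05, SE 0.45, adjusted p = 0.00199) and Gas6 (-2.52, SE 0.29, adjusted p = 0.00217). The count turned on single libraries. It was 0 without group D replicate 1 and without replicate 2, 24 without group C replicate 1, 27 and 31 without group E replicates 1 and 2, and 188 and 189 without group A replicates 1 and 2. Without group C replicate 2 it was 392, with 237 higher and 155 lower, of which 2 and 73 were called in the full fit.

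Left with group C replicate 1 as the lone library of stages IV-VI, assumed to vary like the other groups, the test called several of the genes with the largest rises. Clstn3, a calsyntenin of the cadherin family, had 5.94 CPM in group C replicate 1 and 125 CPM in replicate 2, against 251 and 272 CPM in D. Its log2 difference from C was 1.99 (SE 0.77, adjusted p = 0.35) with both C libraries and 5.45 (adjusted p = 0.000779) without replicate 2. Over the same change of libraries Stra6 went from 1.47 (adjusted p = 0.499) to 4.71 (adjusted p = 0.00142), Syt13 from 2.13 to 4.84 (adjusted p = 0.0271) and Actn3 from 0.97 to 2.19 (adjusted p = 0.0271). Other genes were as high in both C libraries as in D, and leaving out replicate 2 did not separate them. Rhox5 differed by 0.15 (SE 0.31, adjusted p = 0.913) with both libraries and by 0.29 (adjusted p = 0.764) without replicate 2. Ndrg4, of the NDRG family, had 290 and 415 CPM in C and 336 and 395 CPM in D (difference 0.05, SE 0.31).

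The third comparison set group D against group E, the stages after it, and called 510 genes (3.56%), 225 higher (1.57%) and 285 lower (1.99%), with 2432 (17%) at an unadjusted p under 0.05. With replicate numbers as a block in the fit, 874 genes were called. Genes shared by C and D dropped sharply into stages IX-X. Ndrg4 had 29.6 and 29.2 CPM in E, a log2 difference of 3.64 (SE 0.34, adjusted p = 0.000688) between D and E. Frmpd1, a scaffold protein, went from 170 and 200 CPM in D to 16.1 and 11.9 CPM in E (3.72, SE 0.41, adjusted p = 0.00142), and Pcyt1b, an enzyme of phosphatidylcholine synthesis, from 79.6 and 66.5 CPM to 7.78 and 8.96 CPM (3.12, SE 0.33, adjusted p = 0.00121). S100a1, a calcium-binding protein, had 139 and 172 CPM in D and 20.6 and 16.7 CPM in E (3.05, SE 0.35), and the water channel Aqp8 315 and 348 CPM against 48.8 and 43.1 CPM (2.85, SE 0.34, adjusted p = 0.00187 for both). In each of these genes the E libraries lay below both D libraries. Stra6, in contrast, was at 83.6 and 85 CPM in E and its difference did not pass (1.39, SE 0.74, adjusted p = 0.374). Genes lower in D than in E were led by Tnp1 (-3.01, SE 0.27, adjusted p = 0.000688), Prm1 (-3.02, SE 0.31, adjusted p = 0.00121), Prss58 (-3.46, SE 0.42) and Cstl1 (-3.25, SE 0.39, adjusted p = 0.00187 for both), and Defb33 (-3.21, SE 0.43, adjusted p = 0.00267). Tnp1 and Prm1 package sperm chromatin, and all 5 genes had a NANOS2 KO mean under 1 CPM. The count was 38 and 58 without group E replicates 1 and 2, 50 and 117 without group D replicates 1 and 2, and 842 and 833 without group A replicates 1 and 2.

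In the retinoid pathway the receptor for retinol uptake and enzymes on the way to retinoic acid rose in group D, while an enzyme that degrades retinoic acid, a protein that binds it and another synthetic enzyme fell. Of 19 tested genes of retinoid uptake and metabolism 4 rose and 3 fell, where 4.36% of all genes rose and 4.28% fell. Their median log2 fold change was 0.04, which equals that of all genes. In the NANOS2 KO 3 of the 19 had a mean under 1 CPM. A fit restricted to genes whose knockout mean reached 1 CPM tested 16 of the list and called 3 higher and 2 lower. Besides Stra6, Aldh1a2, which makes retinoic acid, stood at 183 and 181 CPM in D and at 22, 54.8 and 146 CPM as the lowest, median and highest elsewhere, so the D libraries were above all others (log2 fold change 1.68, SE 0.30, adjusted p = 0.00412). Rdh10, which oxidises retinol, had 31.9 and 31.4 CPM against 2.45 to 27.5 CPM (1.63, SE 0.45). Cyp26b1, which degrades retinoic acid, had 22.4 and 30.6 CPM in D, like the 24.7 and 22.3 CPM of E, while the libraries of A, B and C held 54.9 to 170 CPM (-1.42, SE 0.30, adjusted p = 0.01). Crabp1, which binds retinoic acid, was at 1.47 and 3.31 CPM against 4.47 to 21.6 CPM (-2.02, SE 0.47), and Aldh1a3, another synthetic enzyme, fell by 1.26 (SE 0.35). Stra6 kept its call with 1 D library, and 5 others did not. Aldh1a2, Rdh10, Cyp26b1, Crabp1 and Aldh1a3 had adjusted p = 0.0629, 0.214, 0.158, 0.197 and 0.152 without group D replicate 1 and 0.0562, 0.219, 0.0738, 0.0772 and 0.333 without replicate 2.

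Rhox5 was not alone among genes known to respond to androgen in Sertoli cells. Of 11 tested 5 rose and none fell, all 11 log2 fold changes were above 0, and the median was 1.22, against 4.36% called higher and a median of 0.04 over all genes. Drd4, a dopamine receptor, had 92.1 and 108 CPM in D and 2.03, 15.5 and 98.9 CPM as the lowest, median and highest of the others (log2 fold change 2.73, SE 0.41, adjusted p = 0.00149), the highest being group C replicate 2. Eppin, a protease inhibitor that also coats sperm, was at 360 and 285 CPM against 72.8 to 258 CPM (1.32, SE 0.21, adjusted p = 0.00203, and 0.0635 without group D replicate 1). Gpd1, a glycerol phosphate dehydrogenase (1.34, SE 0.22), and Corin, a membrane serine protease (1.22, SE 0.21), completed the 5 with Rhox5. The list summed to 0.426% and 0.395% of counts in D and to 0.164% to 0.364% elsewhere, the upper end again group C replicate 2, and 8 of 11 rose without that library, 3 without group D replicate 1 and 4 without group D replicate 2.

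Of 27 tested Sertoli core genes 3 rose and none fell, with a median of 0.18, where 4.36% of all genes rose and 4.28% fell. The list summed to 1.56% and 1.49% of counts in D. Elsewhere it took 1.08% to 1.64% (median 1.2%), the highest share being that of group C replicate 2. Gata1, a transcription factor of Sertoli cells at these stages, had 282 and 347 CPM in D and 67.8 to 219 CPM elsewhere (log2 fold change 1.27, SE 0.27, adjusted p = 0.0111). Rhox8, a homeobox gene, had 529 and 587 CPM against 193 to 522 CPM (0.80, SE 0.22), and Ptgds, which makes prostaglandin D, 417 and 261 CPM against 40.6 to 297 CPM (1.62, SE 0.43). These calls were lost with either D library left out, at adjusted p = 0.0723 and 0.149 for Gata1, 0.158 and 0.254 for Rhox8 and 0.316 and 0.0986 for Ptgds without replicates 1 and 2. Among 18 tested genes of hormone signalling 2 rose. Thra, a thyroid hormone receptor, had 84.7 and 138 CPM in D and 78.7 and 103 CPM in C, with 6.81 to 34.5 CPM in the other 6 libraries (2.07, SE 0.29, adjusted p = 0.00104), and Prlr, the prolactin receptor, was low throughout the sorted cells, at 11 and 3.31 CPM in D and at most 7.15 CPM elsewhere, while NANOS2 KO testes had 214 CPM ± 45.6 (SD, n = 18). Prlr did not pass without group D replicate 1, at adjusted p = 0.155. The FSH receptor gene Fshr stood at a mean of 20.1 CPM in D and 20.7 CPM elsewhere.

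Genes of the actin bundles that anchor spermatids moved in both directions, and most did not pass. Of 36 tested genes of actin and the ectoplasmic specialization 5 fell (Espn, Fscn3, Pls3, Ctnna1 and Itga6) and 2 rose (Actn3 and Jam2), with a median of -0.18, where 4.28% of all genes fell and 4.36% rose. The counts were 1 fall and 1 rise without group D replicate 1, and 2 falls and 1 rise without replicate 2. Espn, which bundles actin at these junctions, had 378 and 455 CPM in D and 951, 1472 and 2008 CPM as the lowest, median and highest of the others, with no overlap (log2 fold change -1.77, SE 0.22, adjusted p = 0.000671). Pls3, a plastin, had 18.3 and 15.8 CPM against 38.9 to 144 CPM (-2.05, SE 0.36), and Ctnna1, the alpha-catenin of adherens junctions, fell by 0.90 (SE 0.22) and the integrin chain Itga6 by 1.18 (SE 0.34) on the log2 scale. Fscn3, a fascin with a NANOS2 KO mean of 0.0808 CPM, is also on the elongating spermatid list, and its part in Sertoli cells was not tested. Of 13 tight and gap junction genes 1 rose, Cldn23, with 21.6 and 20.6 CPM against 0.811 to 27.4 CPM (2.34, SE 0.35), while the barrier claudin Cldn3 was above all other libraries but did not pass (0.86, SE 0.32, adjusted p = 0.115). Of 25 genes of tubulobulbar complexes and endocytosis 1 fell, the clathrin adaptor Ap2b1 (-0.96, SE 0.22). Jam2 was not called in 7 of the 10 fits with 1 library left out, and without group D replicates 1 and 2 Pls3 had adjusted p = 0.0578 and 0.0778 and Ap2b1 0.19 and 0.116, and Fscn3 had 0.0541 without replicate 1.

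Ligands that mark dying cells and shed cytoplasm for uptake moved in opposite directions. Of 19 tested engulfment genes 1 rose and 2 fell, with a median of 0.03, where 4.36% of all genes rose and 4.28% fell. Gas6, which bridges dying cells to the receptors Tyro3, Axl and Mertk, had 132 and 157 CPM in D and 372, 943 and 1135 CPM as the lowest, median and highest of the others (log2 fold change -2.46, SE 0.26, adjusted p = 0.000312). Its lowest levels outside D were the 544 and 372 CPM of group E. Mfge8, which bridges them to integrins, had 457 and 467 CPM against 117 to 415 CPM (1.32, SE 0.25, adjusted p = 0.00585), and Elmo1, which acts in the uptake itself, 48.8 and 42.3 CPM against 73.9 to 186 CPM (-1.49, SE 0.27). Of 30 lysosome and autophagy genes 1 fell, Tfeb, their transcriptional activator (-1.32, SE 0.32), while the list summed to 0.612% and 0.641% of counts in D and 0.443% to 0.626% elsewhere. With group D replicates 1 and 2 left out in turn, Mfge8 had adjusted p = 0.0722 and 0.0684, Elmo1 0.0584 and 0.0875 and Tfeb 0.197 and 0.162.

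Of 24 tested proteases and inhibitors 4 rose (Tmprss6, Prss35, Adam8 and Eppin) and 2 fell, with a median of 0.29, where 4.36% of all genes rose and 4.28% fell. Without group C replicate 2, 9 of 29 rose and 3 fell, and without group D replicate 1, 3 of 29 rose and none fell. Adam8, a membrane metalloprotease, had 55 and 35.4 CPM in D and 46.2 and 61.6 CPM in C, against 0.778 to 15.8 CPM in the other 6 libraries (log2 fold change 2.47, SE 0.34, adjusted p = 0.00101). Cathepsin L (Ctsl), a protease long known as abundant at stages VI-VII, had a mean of 2013 CPM in D against 1206 CPM and did not pass (0.76, SE 0.23, adjusted p = 0.0592), and the plasminogen activator Plat did not either (1.43, SE 0.50, adjusted p = 0.0981). Pcsk6, a proprotein convertase, had 31.9 and 37 CPM against 46.4 to 150 CPM (-1.43, SE 0.24), and Cst8, a cystatin, 17.2 and 30.8 CPM against 36.1 to 117 CPM (-1.67, SE 0.29). Both lost their call without group D replicate 1, at adjusted p = 0.0716 and 0.0822.

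In the lists of metabolic genes members passed in both directions, where 4.36% of all genes rose and 4.28% fell. Of 26 genes of glycolysis and lactate export 2 rose and 3 fell. Slc16a3, a lactate exporter, had 69.7 and 44.9 CPM in D, 25.9 and 55 CPM in C and 1.17 to 13.2 CPM in the other 6 libraries (log2 fold change 2.65, SE 0.35, adjusted p = 0.000832). Pfkfb4, a regulator of glycolysis (1.02, SE 0.27), rose, and Slc2a8, a glucose transporter (-1.55, SE 0.34), and the glycolytic enzymes Gpi1 (-0.94, SE 0.25) and Pfkp (-1.68, SE 0.47) fell, with adjusted p of 0.216, 0.142, 0.3 and 0.309 without group D replicate 1 and 0.197, 0.163, 0.115 and 0.184 without replicate 2. Of 21 tested genes on the choline and phospholipid list, which also holds a progesterone receptor, Pcyt1b rose (2.27, SE 0.22, adjusted p = 0.000246) and 2 fell. These were Paqr5, a membrane progesterone receptor, with 6.6 and 11.2 CPM against 45.5 to 133 CPM (-3.10, SE 0.36) and a NANOS2 KO mean of 0.972 CPM, and Chdh, choline dehydrogenase (-3.42, SE 0.65), whose adjusted p was 0.0972 without group D replicate 1 and 0.096 without replicate 2.

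Of 22 lipid droplet and lipase genes 2 rose and 2 fell, where 4.36% of all genes rose and 4.28% fell. Mgll, a lipase of monoacylglycerols (1.35, SE 0.28), and Plin2, a lipid droplet coat protein (1.29, SE 0.28), rose, while Lipe, the hormone-sensitive lipase (-1.68, SE 0.33), and Abhd5, a lipase activator (-0.98, SE 0.24), fell. Plin2 was as high in group C replicate 2, at 68.1 CPM, as in D at 56.1 and 63 CPM. Without group D replicate 1 these 4 genes had adjusted p = 0.146, 0.0914, 0.131 and 0.236, so none was called. Of 25 glutathione genes 4 rose and none fell, Gsta1, Gsta2, Gsta3 and Gstk1, with a median of 0.33, where 4.36% of all genes rose. In this list 1 gene rose without group D replicate 1 and 2 without replicate 2, Gsta1 having adjusted p = 0.0873 without replicate 1 and Gsta3 0.0964 and 0.0508 without replicates 1 and 2. Gsta2 had 75.2 and 80.8 CPM in D and more in C, 143 and 109 CPM, against 6.89 to 42.3 CPM elsewhere (1.48, SE 0.23, adjusted p = 0.00165). Genes of the Gsta family are near-identical copies, and how their reads were divided is uncertain.

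Enzymes of heme synthesis moved in opposite directions, where 4.36% of all genes tested were called higher and 4.28% lower. Alas2, the erythroid form of the first enzyme of heme synthesis, had 37 and 31.4 CPM in D and 95.2, 517 and 949 CPM as the lowest, median and highest elsewhere (log2 fold change -3.68, SE 0.41, adjusted p = 0.000387). The next enzyme, Alad, rose slightly (0.75, SE 0.20, adjusted p = 0.0369), with an adjusted p of 0.369 without group D replicate 2. Of 33 tested genes 4 rose and 3 fell, and 1 rose and 1 fell with either D library left out. Slc25a37, the mitochondrial iron importer, had 5.87 and 12 CPM against 19.8 to 43 CPM (-1.56, SE 0.38), and Hmox2, which breaks heme down, 164 and 274 CPM against 322 to 623 CPM (-1.04, SE 0.27), with adjusted p of 0.237 and 0.299 without group D replicate 1. Alas2 was the blood gene that could be tested, since globin genes and the others of that list found in the table were too low to enter the test.

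Of 30 chloride, water and ion transport genes 4 rose and 2 fell, and 2 rose and none fell with either D library left out. Besides Ano1, Aqp5, a water channel, had 9.9 and 11.2 CPM in D against 0.968 to 4.79 CPM, with no overlap (log2 fold change 2.60, SE 0.38, adjusted p = 0.00136). Aqp8, another water channel, peaked in group C at 738 and 563 CPM, was at 315 and 348 CPM in D and passed against the mean of the others (1.13, SE 0.23, adjusted p = 0.00958) without being highest in D. Clcn5, a chloride transporter of endosomes, completed the 4 (1.32). Clic1 fell by 1.07 (SE 0.20) and Aqp11 by 1.23 (SE 0.32) on the log2 scale. Among all genes tested 4.36% rose and 4.28% fell. Without group D replicate 1 Aqp8, Clic1 and Aqp11 had adjusted p = 0.0793, 0.0733 and 0.272. Of 19 amino acid transporter genes 2 rose, the creatine carrier Slc6a8 (1.29, SE 0.33) and the glutamine carrier Slc38a5 (1.48, SE 0.42), at adjusted p = 0.176 and 0.337 without the same library.

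Of 35 tested genes of axon guidance and adhesion receptors 5 rose and 3 fell, with a median of 0.26, while 2 rose and none fell without group D replicate 1, and 3 rose and 1 fell without replicate 2. Efnb1, an ephrin ligand, had 80.7 and 65.5 CPM in D and 7.45 to 56.3 CPM elsewhere (log2 fold change 2.02, SE 0.28, adjusted p = 0.000983), and Ephb2, a receptor of such ligands, rose by 2.62 (SE 0.56). Clstn1, a calsyntenin like Clstn3, had 884 and 974 CPM against 110 to 576 CPM (1.75, SE 0.36). In Clstn1, as in Clstn3, group C replicate 1 was the lowest library, while replicate 2 had 554 CPM. Plxnb2, a plexin, had 134 and 180 CPM against 270 to 615 CPM (-1.49, SE 0.23). Clstn1 had adjusted p = 0.0774 and 0.0948 without group D replicates 1 and 2, and Plxnb2 0.0505 without replicate 1. The list summed to 0.32% and 0.338% of counts in D, above the 0.15% to 0.272% of the other libraries. Over all genes tested 4.36% were called higher and 4.28% lower.

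In the remaining lists on Sertoli function up to 3 genes of each moved, where 4.36% of all genes rose and 4.28% fell. Of 12 tested niche growth factors 1 fell, the Notch ligand Jag1, with 5.87 and 10.5 CPM against 23.9 to 47.2 CPM (log2 fold change -1.87, SE 0.37), and the list had a median of -0.43. Gdnf, the growth factor of spermatogonial stem cells, had a mean of 1.57 CPM in D and 6.27 CPM elsewhere and did not pass (-1.89, SE 0.60, adjusted p = 0.0683). Of 20 genes of synaptotagmins and exocytosis 2 rose (Syt13 and Syt11) and 1 fell (Sytl4), of 16 clock genes 2 rose (Cry2 among them), and of 28 cell cycle genes 2 rose (Ccne2 and the cell cycle inhibitor Cdkn1a, 1.18, SE 0.32) and 1 fell (Plk1). Of 24 immediate early genes, which respond to the stress of dissociation, 1 rose, Fosl2 (1.15, SE 0.30), and the median was -0.04. Without group D replicate 1 the adjusted p was 0.127 for Jag1, 0.341 for Syt11, 0.293 for Sytl4, 0.0902 for Cry2, 0.26 for Ccne2, 0.183 for Cdkn1a and 0.137 for Fosl2.

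**Figure D4:**
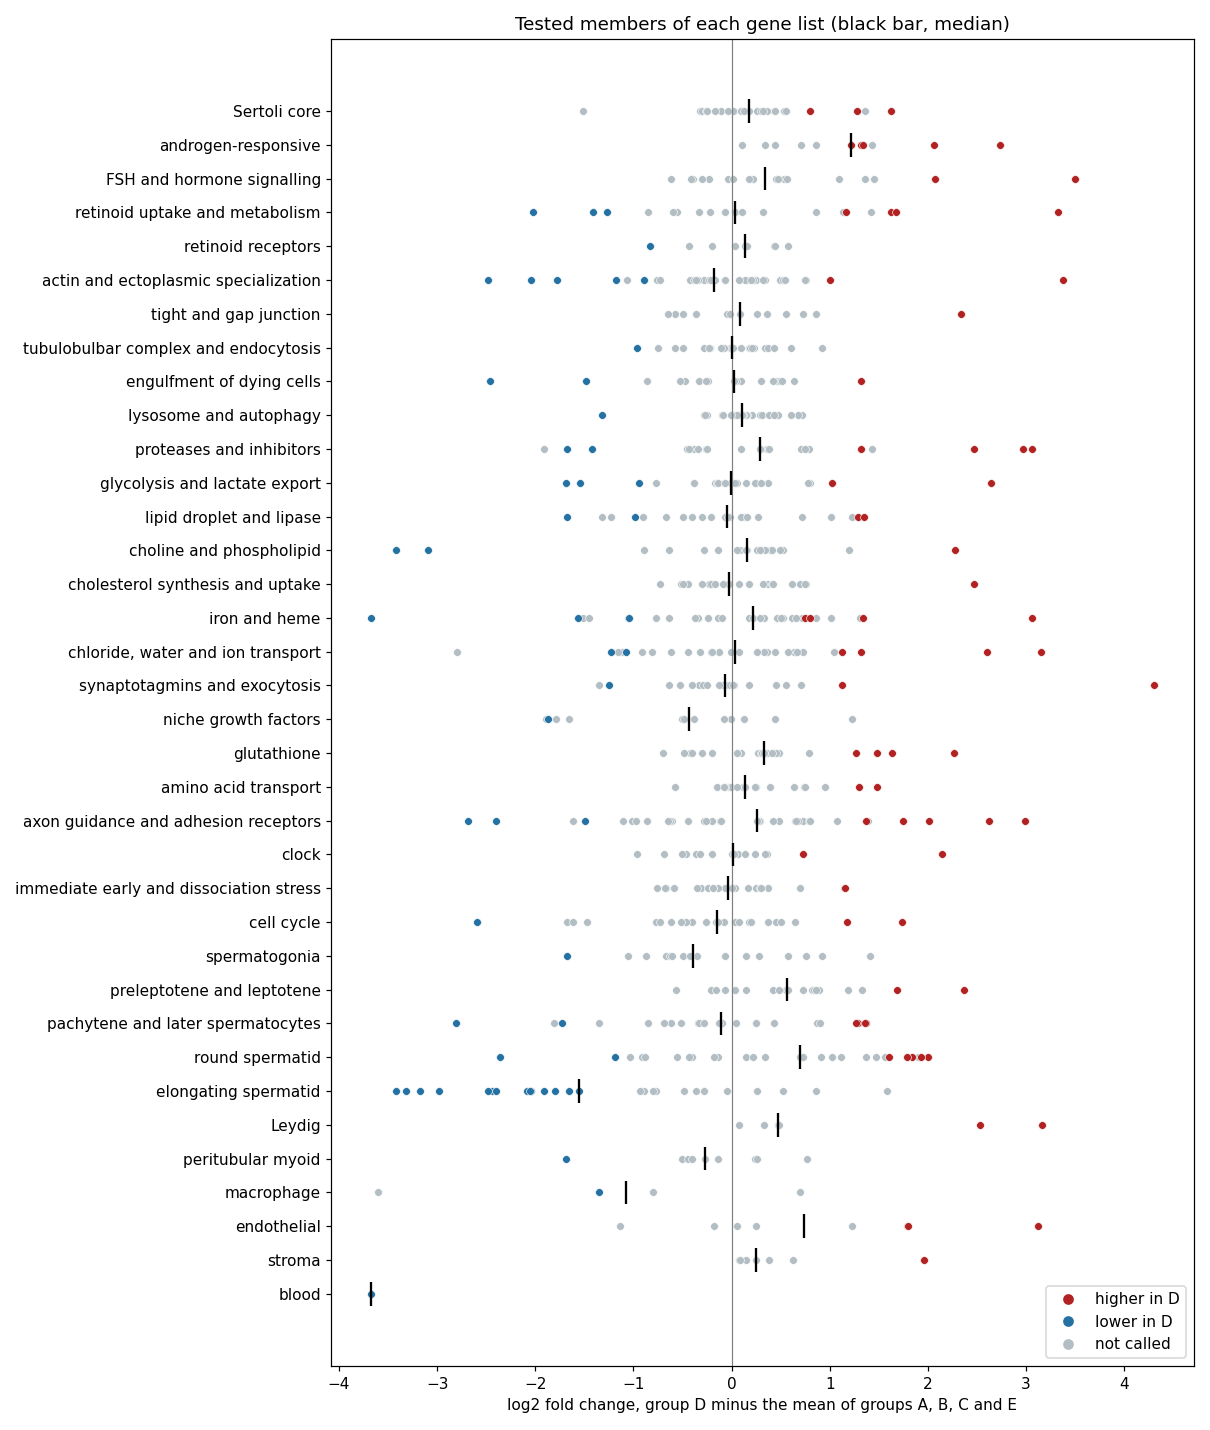
Log2 fold change (group D minus the mean of groups A, B, C and E) of every tested member of each gene list, red where called higher, blue where called lower and grey where not called, with a black bar at the list's median. The androgen-responsive list has its median at 1.22 and the elongating spermatid list at -1.55, while most lists on Sertoli function have medians near the 0.04 of all genes.

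Transcripts of elongating spermatids were low in group D. Of 27 elongating spermatid genes 14 fell and none rose, with a median log2 fold change of -1.55, against 4.28% called lower over all genes. Without group D replicate 1, 6 fell and the median was -1.25, and without replicate 2, 12 fell and it was -1.88. Prm1, the protamine that packs sperm chromatin, had 130 and 183 CPM in D and 1062, 1669 and 2568 CPM as the lowest, median and highest elsewhere (-3.42, SE 0.29, adjusted p = 0.000116). Tnp1, the transition protein that precedes protamines, was at 180 and 236 CPM against 826 to 2610.5 CPM (-2.98, SE 0.25, adjusted p = 9.45e-05), and Akap4, of the sperm tail, at 160 and 206 CPM against 587 to 1283.5 CPM (-2.40, SE 0.26, adjusted p = 0.000348). In none of the 3 did the groups overlap. The list summed to 0.546% and 0.793% of counts in D and to 1.34% to 2.65% in the other libraries, and 22 of its 27 genes had a NANOS2 KO mean under 1 CPM. Its part in the other falls was not tested, and a fit restricted to genes whose knockout mean reached 1 CPM called 461 higher and 385 lower.

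Some genes of round spermatids and of cells entering meiosis were called higher in group D, and these calls were lost without group D replicate 2. Of 27 round spermatid genes 5 rose and 2 fell, with a median of 0.69, where 4.36% of all genes rose and 4.28% fell. Without group D replicate 2 none rose and the median was 0.13, without group D replicate 1, 1 rose with a median of 0.95, and without group E replicate 1 none rose. The list summed to 0.122% and 0.205% of counts in D against 0.196% to 0.345% elsewhere. Its members that rose were Catsper3, of the sperm calcium channel (log2 fold change 1.93, SE 0.45), Izumo1, which fuses sperm and egg (1.60, SE 0.38), Tex36, Spaca4 and Spaca3, and the fall of Hspa1l, a heat shock protein, was the largest change, with 112 and 182 CPM against 496 to 1307 CPM (-2.36, SE 0.30, adjusted p = 0.000671). Of 20 preleptotene and leptotene genes 2 rose and none fell, with a median of 0.57. Rec8, a meiotic cohesin, had 135 and 238 CPM in D and 20.8 to 145 CPM elsewhere (1.69, SE 0.29, adjusted p = 0.00347), and Gm4969, known as Meiosin, the partner of Stra8 at meiotic entry, 8.8 and 14.5 CPM against 0.532 to 7.91 CPM (2.37, SE 0.42, adjusted p = 0.00361). Stra8 itself did not pass (1.18, SE 0.37, adjusted p = 0.0672) and differed between the D libraries, with a mean of 35.1 CPM ± 25.3 (SD, n = 2). Without group D replicate 2 Rec8 and Gm4969 had adjusted p = 0.134 and 0.115, Catsper3 0.483 and Izumo1 0.314.

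Of 24 genes of pachytene and later spermatocytes 4 rose, among them Piwil1, of the piRNA pathway (log2 fold change 1.37, SE 0.30), and 2 fell, Adam3 and Ccna1, the cyclin of male meiosis (-2.81, SE 0.62), while none was called without group D replicate 1 and 1 rose without replicate 2. The 16 spermatogonial genes had a median of -0.39 and 1 fall, Etv5, a transcription factor that Sertoli cells also express, with 62 and 66.5 CPM in D and 122, 217 and 265 CPM as the lowest, median and highest elsewhere (-1.67, SE 0.24, adjusted p = 0.00127). Etv5 had 115 CPM ± 21.3 (SD, n = 18) in NANOS2 KO and kept its call in each fit with 1 library left out, while Piwil1, Adam3 and Ccna1 had adjusted p = 0.208, 0.0672 and 0.175 without group D replicate 1. Genes that mark group D and are silent without germ cells were Chit1, a chitinase, with 47 and 39 CPM in D, 1.36 to 33.9 CPM elsewhere and a NANOS2 KO mean of 0.0893 CPM (2.64, SE 0.44, adjusted p = 0.00277, and 0.0541 without group D replicate 1), and Prph2, a membrane protein (1.71, SE 0.36, adjusted p = 0.0637 without the same library and 0.158 without replicate 2). Falls of this kind were Defb33, a beta-defensin, with 1.47 and 1.78 CPM against 14.6 to 30 CPM (-3.63, SE 0.39, adjusted p = 0.000312), and H2afb1, a histone variant of spermatids (-3.18, SE 0.37). Among all genes tested 4.36% were called higher and 4.28% lower.

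Lists of markers of other somatic cells each held at most 0.111% of counts in a sorted library. Called members rose in the endothelial, Leydig and stroma lists and fell in the peritubular myoid and macrophage lists. Over all genes tested 4.36% were called higher and 4.28% lower. Of 8 endothelial genes tested 2 rose, Tek, with 6.97 and 6.12 CPM in D and 0 to 3.15 CPM elsewhere (log2 fold change 3.12, SE 0.48, adjusted p = 0.00176), and Cdh5. The list summed to 0.00409% and 0.00575% of counts in D and 0.00197% to 0.00497% elsewhere. Of 6 Leydig genes 2 rose, Hsd3b1 and Hsd17b3, at 0.00815% and 0.00938% of counts for the list against 0.0049% to 0.00735%, and of 7 stroma genes 1 rose, Gsn (1.96, SE 0.35), at 0.0307% and 0.0402% against 0.0158% to 0.034%. Of 9 peritubular myoid genes 1 fell, Actg2 (-1.69, SE 0.31), and this list was the most abundant, at 0.0877% and 0.0815% of counts in D against 0.0795% to 0.111%. Of 4 macrophage genes 1 fell, Aif1 (-1.35, SE 0.30), with the list at 0.0192% and 0.0179% against 0.0252% to 0.042%. Tek kept its call in each fit with 1 library left out. Hsd3b1 had adjusted p = 0.147, 0.103 and 0.0544 without group D replicates 1 and 2 and group E replicate 1, and Hsd17b3 lost its call in 6 of the 10 fits, these 3 among them. Without group D replicates 1 and 2 Cdh5 had adjusted p = 0.117 and 0.0964, Gsn had 0.069 without replicate 2, and Actg2 and Aif1 had 0.1 and 0.206 without replicate 1. The part of these cells in the changes of other genes was not tested.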

How the data were processed

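Polyadenylated RNA of 10 sorted Sertoli libraries and 18 NANOS2 KO whole testes was sequenced on an Ion Proton, per the labels' protocols, which speak of sorted germ cells in the extraction step. Reads were handled by the authors with Bowtie, TopHat and Cufflinks on mm10, per the submitters' processing notes; their versions, how reads were counted, with which annotation and whether by strand were not given in the sources used here. In the deposited sorted table there are raw counts for 43280 gene rows. The deposited knockout table, whose name speaks of FPKM, holds CPM, since each column sums to 999998 to 1000002, and was used only to mark genes with a mean under 1 CPM.

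The filter was filterByExpr and the scaling TMM, and counts were fitted with edgeR 4.0.16 (R 4.3.3, limma 3.58.1) with 1 coefficient for each stage group. Quasi-likelihood F tests used Benjamini-Hochberg adjustment over all 14331 genes tested, and an adjusted p under 0.05 is a call. CPM in sorted libraries are scaled by TMM, and those of the knockout are as deposited. The biological coefficient of variation was 0.268. Floors of 3 counts cover counting error only. The script was tested on simulated counts. The 27 gene symbols that a spreadsheet had turned into dates, 0.235% to 0.332% of counts, are not named. GENCODE M21 (GRCm38) holds 91.1% of symbols.

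The group, the lists of genes and the rule by which genes are named were chosen with earlier results of these data known. The rule took the 4 markers, then the 12 largest rises and 12 largest falls among called genes with an average log2 CPM of at least 4, no overlap between group D and the other libraries and a knockout mean of at least 1 CPM. It also took 4 of each with a lower knockout mean, up to 3 called members of each list in each direction, and the 5 smallest p in each direction against C and E. Gpd1, Corin, Ctnna1, Itga6, Cldn3, Ctsl, Plat, Clcn5, Ephb2, Gdnf, Gstk1, Spaca3, Spaca4, Stra8, Fshr and the identity genes were named after their values were seen. A few members of these selections are not reported here. As alternatives, a replicate block, DESeq2 1.42.0, RLE scaling, no filter on low counts, genes expressed in the knockout alone, no mitochondrial genes, and each library left out in turn were tried.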

Additional observations from a re-analysis of the deposited data

How the results depend on the processing

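Every gene called in group D against the mean of the others kept its direction wherever it was present in an alternative, and 1209, 1203, 1192 and 1222 of the 1239 calls were also made with RLE scaling (1217 calls), without the filter (1932 calls), with DESeq2 (1529 calls) and without mitochondrial genes (1245 calls). With genes expressed in the NANOS2 KO alone there were 846 calls. Leaving out each library in turn gave 295 to 1788 calls, the lowest without group D replicate 1 and the highest without group A replicate 1. Against group C there were 617 calls without the filter, 309 with DESeq2, 34 with genes expressed in the knockout alone and 0 to 392 with 1 library left out. Against group E the same alternatives gave 1180, 839, 316 and 38 to 842 calls. With replicate numbers as a replicate block there were 1661, 178 and 874 calls in the comparisons with all other groups, C and E. The numbers were not taken to pair the samples, since the labels name no animal or batch shared by libraries of the same number. Deviations of replicate 1 from the group means correlated at 0.143 to 0.43 among groups A, B, D and E. Between group C and these they correlated at -0.111 to -0.0348. An effect shared by libraries of the same number in groups A, B, D and E was not tested. A knockout mean under 2 CPM marked 21.8% of genes called higher and 45.9% of those called lower, and under 1 CPM in every knockout library 12.5% and 32.6%. Where a group is left with 1 library, that library is assumed to vary like the other groups. Each group has 2 libraries and the shallowest holds 1901743 counts, which limits the precision of low levels, and a gene that did not pass is not shown to be equal between stages.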
